A study of Homo sapiens with 12 samples.

Results

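Acetaminophen was compared with no treatment in HepG2C3A cells kept in Petri dishes. HepG2C3A is an established human line from a liver tumour that divides in culture and keeps many hepatocyte functions, so it stands for a dividing liver tumour cell rather than for resting liver. The comparison took 6 of the 12 arrays of the series, chosen by their titles: 3 of Petri treated cells (acetaminophen) and 3 of Petri control cells (none). Both groups were in culture for 96 h, and the treated cells met acetaminophen during 72 h of that time. The labels used here name acetaminophen without a concentration. The other 6 arrays, 3 control and 3 treated with the same times, came from a culture microsystem and are used for 1 comparison near the end. All 4 groups are of the same cell line, and the labels name no genetic change. Whether replicates were separate cultures is not stated in the labels, so each p-value reflects the spread among these particular arrays, and that spread may be technical.

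RNA was measured as log2 probe set intensity on Affymetrix Human Gene 1.0 ST arrays. One probe set stood for each gene, and 13199 of 18404 genes were bright enough to be tested. A gene is said to have risen or fallen where its adjusted p was under 0.05 in limma with Benjamini-Hochberg adjustment over the 13199 genes. Array medians were 5.608, 5.628 and 5.6 in Petri control and 5.556, 5.583 and 5.574 in Petri treated arrays. All treated medians thus lay below all control medians. Pairs of Petri arrays correlated with r from 0.9922 to 0.9946 within a group and from 0.99 to 0.993 between groups. All 19 hepatocyte markers on the array, among them ALB and HNF4A, lay above the 40th percentile of all 6 Petri arrays, so the label of a hepatic line held. Markers of other cell types were mixed: 8 of 10 cholangiocyte, 6 of 9 enterocyte, 5 of 12 fibroblast, 5 of 12 leukocyte, 3 of 11 endothelial and 2 of 6 pancreatic acinar markers also lay above it in all 6. Among those under it in all 6 were CFTR and AQP1 of bile ducts, SI of enterocytes, DCN and LUM of fibroblasts, PTPRC of leukocytes, PECAM1 of endothelium and PRSS1 of acini.

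In liver cells acetaminophen is mostly conjugated to glucuronide and sulfate, and a part is oxidised by cytochrome P450 enzymes to a reactive quinone imine that is trapped by glutathione. DNA damage stabilises the p53 protein, which induces cell cycle inhibitors, repair factors, death receptors and several lipid and membrane proteins. E2F transcription factors drive genes of DNA synthesis, while the pocket proteins of the retinoblastoma family and the repressor E2F7 hold such genes down. These are background facts and not measurements of these arrays.

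The response in Petri dishes was broad, mostly upward and mostly modest in size. Of 13199 genes, 1106 rose (8.38%) and 261 fell (1.98%), together 10.4%. Rises made up 80.9% of these calls. Their share was 75.6% with the replicate number as a block, 76.1% with quantile normalization and 67.3% with array weights. It was 90.7% where array medians were set equal, which moved the median of all genes from 0.01 to 0.05. The median rise was 0.49 and the median fall -0.38 on the log2 scale, beside a median over all genes of 0.01 and quartiles of -0.11 and 0.16. Rises of at least 2-fold numbered 52 and falls of at least 2-fold 5. Among the rises, 43 began with the control mean below the arrays' 40th percentile, and among the falls, 17 ended below it. With genes cut by intensity into 5 classes of equal size, from dim to bright, 3.79%, 8.75%, 11.2%, 11.2% and 7.01% rose, while 2.73% of the dimmest and 1.55% of the brightest class fell. Treated and control arrays did not overlap for 34.5% of all genes, and with 3 arrays a group no exact permutation test can give a p below 0.1. With the replicate number as a block, 1648 genes rose (12.5%) and 532 fell (4.03%), and 1357 genes were called in both fits. Left out 1 at a time, Petri control 1, 2 and 3 gave 911, 681 and 739 rises with 187, 90 and 105 falls, and Petri treated 1, 2 and 3 gave 987, 604 and 653 rises with 180, 97 and 77 falls. In each of these 6 fits, 521 rises and 42 falls kept the call. The genes named below as risen or fallen are of that kind unless the text says otherwise. RBL1, RAD51C, FANCI, FANCB, LGMN, SEC11C, ACOT2 and STAG1 were named after their values were seen.

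**Figure D1:**
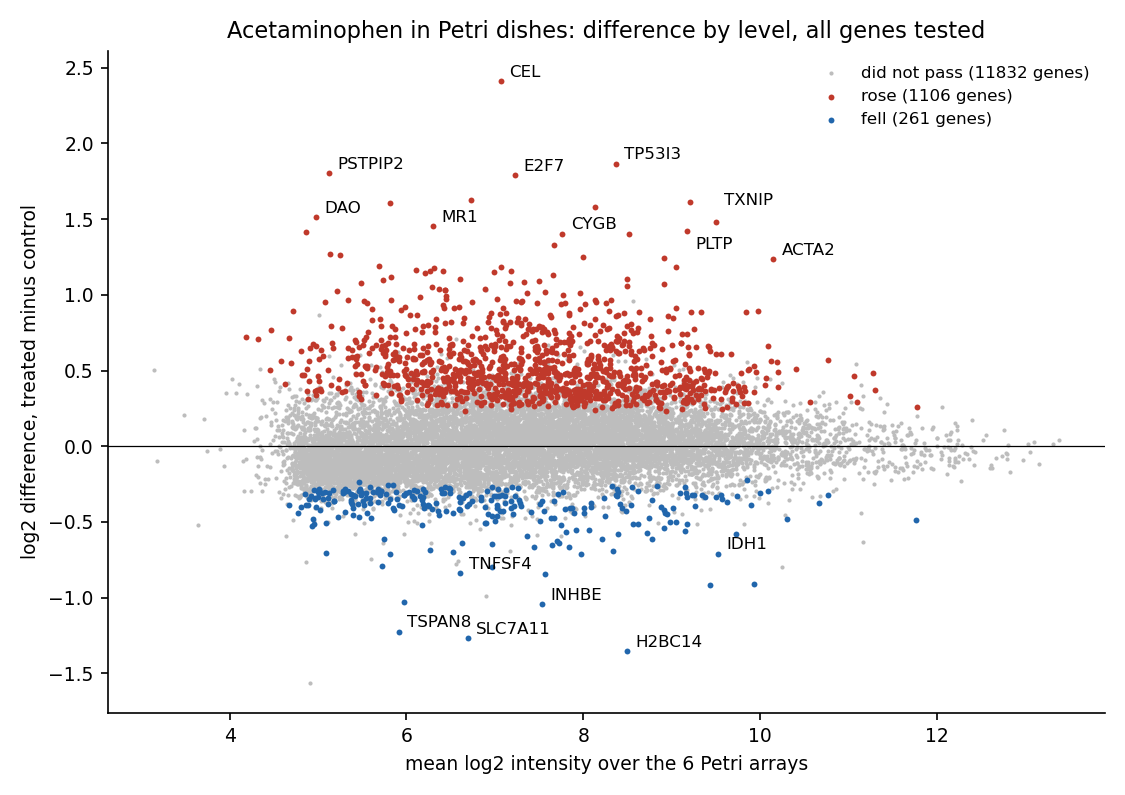
Each point is 1 of 13199 genes. The horizontal axis is its mean log2 intensity over the 6 Petri arrays and the vertical axis its log2 difference, treated minus control. Red points rose (1106) and blue points fell (261) at adjusted p under 0.05, and CEL stands highest at 2.41.

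The 40 largest rises held genes of many kinds, and those of DNA replication and repair, such as CDC6, TK1, BRCA1, BLM, POLA2 and POLQ, are described with their lists. TP53I3 encodes a quinone oxidoreductase transcribed under p53. Its log2 values were 7.29, 7.48 and 7.54 in control cells and 9.16, 9.43 and 9.32 in treated cells, a 3.65-fold rise (1.87 ± 0.10 SE, adjusted p = 4.05e-07). MR1, which presents vitamin B metabolites to a class of T cells, read 5.61, 5.64 and 5.48 in control and 6.94, 7.10 and 7.04 in treated cells (1.45 ± 0.08, adjusted p = 4.05e-07). Treated arrays were the higher in both genes, and the rule that named the largest rises and falls required groups without overlap. PLTP, the phospholipid transfer protein of plasma lipoproteins, went from 8.41, 8.50 and 8.47 to 9.69, 9.98 and 9.99, a 2.68-fold rise (1.42 ± 0.11, adjusted p = 6.9e-06). CYGB, a globin with peroxidase activity, went from 7.07, 7.0 and 7.12 to 8.70, 8.37 and 8.32 (1.40 ± 0.14, adjusted p = 7.93e-05). Its treated array 1 was the highest and the other two lay close together.

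Several large rises began near the floor of the array. PSTPIP2, an adaptor that binds the membrane and actin, stood at 4.22 ± 0.14 (SD, n = 3) in control cells, under the 40th percentile of the arrays (4.86 on average), and at 6.02 ± 0.23 in treated cells. DAO, the peroxisomal D-amino acid oxidase, read 4.20, 4.45 and 4.02 in control and 5.52, 5.95 and 5.74 in treated cells (1.51 ± 0.13, adjusted p = 2.4e-05). LAPTM5, a lysosomal membrane protein best known from blood cells, rose from 4.62 ± 0.09 to 5.88 ± 0.13 (1.26 ± 0.13, adjusted p = 9.86e-05). The same held for C18orf54 (1.27 ± 0.14). For these genes the control values do not show transcript above background, so the size of the rise is a value on the array scale only.

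Cytoskeletal, surface and secreted proteins were also among the 40 largest rises. ACTA2, smooth muscle actin, read 9.56, 9.52 and 9.50 in control and 10.69, 10.81 and 10.80 in treated cells, a 2.36-fold rise with an SD of 0.03 and 0.07 (adjusted p = 2.75e-06). The receptor tyrosine phosphatase gene PTPRU rose by 1.25 ± 0.11, CLTRN, which encodes a chaperone of amino acid transporters, by 1.19 ± 0.13, the sulfotransferase gene CHST6 by 1.16 ± 0.15, and REEP2, an endoplasmic reticulum shaping protein, by 1.09 ± 0.11. MUC13, a transmembrane mucin, read 6.03, 5.70 and 6.03 in control and 7.44, 7.48 and 7.71 in treated cells. Of 12 mucin and goblet cell genes it alone rose (8.33%, beside 8.38% of all genes) and 1 fell, and the list median was -0.15.

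The arrestin relatives TXNIP, which binds thioredoxin and lowers glucose uptake, and ARRDC4 both rose. TXNIP spread widely among control arrays, at 9.44, 8.0 and 8.84, and read 10.60, 10.04 and 10.08 in treated cells (1.48 ± 0.27, adjusted p = 0.00429). Control array 2 was the lowest and treated array 1 the highest. ARRDC4 went from 4.95 ± 0.14 to 6.03 ± 0.04 (1.08 ± 0.13, adjusted p = 0.000345). Both rank among the 40 largest rises.

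**Figure D2:**
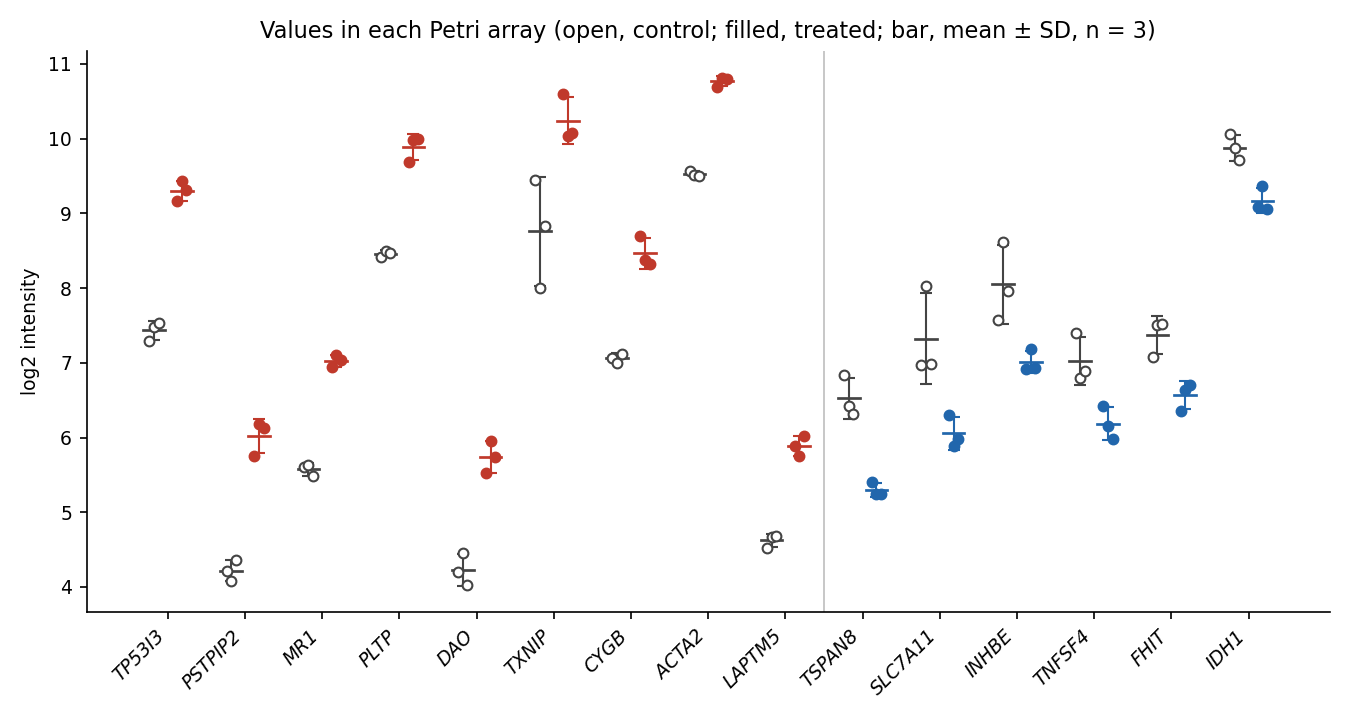
Log2 intensity of 15 named genes in each of the 6 Petri arrays. Open points are control arrays and filled points treated arrays, with the mean and SD (n = 3). The 9 genes on the left rose and the 6 on the right fell, and in none do the groups overlap, a separation that the naming rule required.

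A few genes of antigen handling and immune recognition rose. TAP1, a subunit of the peptide transporter of the endoplasmic reticulum, rose from 6.60 ± 0.19 to 7.76 ± 0.24 (1.16 ± 0.13, adjusted p = 0.000193). MICB, a ligand of the natural killer receptor NKG2D that was picked after its values were seen, rose from 7.67 ± 0.04 to 8.62 ± 0.06 (0.95 ± 0.08, adjusted p = 2.02e-05). None of 6 histocompatibility genes tested passed. B2M, the light chain of class I molecules, read 9.66, 9.69 and 9.69 in control and 9.99, 9.88 and 10.06 in treated cells (0.30 ± 0.10, adjusted p = 0.0903). Of 19 genes of the type I interferon response, TRIM22 alone rose (1.16 ± 0.12, adjusted p = 0.000138), with a list median of -0.03, and 2 rose with the replicate block. TRIM22 also led the 42 tripartite motif genes, of which 6 rose (14.3%, beside 8.38% of all genes) and 1 fell. With the block 7 rose and 3 fell. TRIM5, a restriction factor of retroviruses, rose by 0.64 ± 0.09, whereas TRIM26 rose by 0.45 on its brightest probe set and gave -0.11 on another, and it did not pass where they were averaged (adjusted p = 0.287). Without Petri treated 1 or 2, the 6 tripartite motif rises were 3.

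Activators and repressors of the E2F network rose side by side. Of 20 E2F factors, pocket proteins and subunits of the DREAM complex, which represses cell cycle genes, 11 rose and 0 fell, and the list median was 0.46 beside 0.01 for all genes. Among activators, E2F1 read 7.20, 7.48 and 7.58 in control and 7.86, 8.10 and 8.0 in treated cells (0.56 ± 0.10, adjusted p = 0.00329). E2F2 rose by 0.68 ± 0.13 and their dimer partner TFDP1 by 0.78 ± 0.14. Among repressors, E2F7 read 6.27, 6.43 and 6.30 in control and 8.04, 8.23 and 8.10 in treated cells, a 3.46-fold rise. The pocket protein genes RB1 and RBL1 rose by 0.52 ± 0.07 and 0.65 ± 0.13. MYBL2 and FOXM1, which switch on late cell cycle genes, rose by 0.77 ± 0.16 and 0.75 ± 0.11. The count of rises in this list lay between 9 and 12 when 1 Petri array was left out.

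The E2F consensus was looked for in the promoters of the tested genes. The bases before the start of 4 risen genes are shown because each holds the E2F consensus, in capitals, close to the start. These 4 were picked after their values were seen, are taken from RefSeq promoter windows of GRCh38.p14 and run 5′ to 3′ on the strand of the gene over the 100 bases before the start. E2F1 lies at chr20:33686386-33686485 on the minus strand, E2F2 at chr1:23531234-23531333 on the minus strand, RBL1 at chr20:37095998-37096097 on the minus strand and CDCA5, the cohesin protector sororin, at chr11:65084041-65084140 on the minus strand.
E2F1: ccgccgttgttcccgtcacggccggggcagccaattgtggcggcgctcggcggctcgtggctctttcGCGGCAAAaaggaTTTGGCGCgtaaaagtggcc
E2F2: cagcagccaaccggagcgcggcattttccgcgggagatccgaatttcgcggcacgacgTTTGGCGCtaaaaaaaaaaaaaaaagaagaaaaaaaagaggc
RBL1: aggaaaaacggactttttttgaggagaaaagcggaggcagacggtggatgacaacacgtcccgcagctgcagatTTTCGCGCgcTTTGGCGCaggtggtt
CDCA5: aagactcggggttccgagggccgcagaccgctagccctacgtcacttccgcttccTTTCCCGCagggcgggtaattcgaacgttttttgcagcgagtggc

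E2F1 and RBL1 hold 2 matches each, the first of E2F1 on the opposite strand, and E2F2 and CDCA5 hold 1 each. The consensus was searched as TTTCCCGC, TTTCGCGC, TTTGCCGC or TTTGGCGC on both strands in windows of 300 bases, 250 before and 50 after the start. It was in 532 of 10404 windows of tested genes (5.11%), in 90 of 923 windows of genes that rose (9.75%) and in 8 of 187 of genes that fell (4.28%). Among the 709 windows of risen genes outside every list the share was 8.6%. The share by list was 35.3% for the E2F list (6 of 17 windows), 30% for nucleosome assembly, 22.2% for condensin and cohesin, 12.5% each for the Fanconi, checkpoint and centromere lists, 5.36% for ZNF genes, 3.33% for kinesins and 0% for the lysosomal and death receptor lists. The window of E2F7, the largest rise of the E2F list, held no match. The CHR element TTTGAA of late cell cycle genes was in 9.4% of all windows and 13.5% of those of risen genes, in 37.5% of the centromere list, 38.9% of the condensin and cohesin list and 33.3% of the kinesins. The letters CCAAT were in 36% of all windows, 45.3% of those of risen genes and 34.8% of those of fallen genes. The p53 half-site consensus was in 5.17% of all windows, 6.72% of those of risen and 9.09% of those of fallen genes. These shares are descriptions of letters in a short window and were not tested.

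Upstream of DNA synthesis, 7 of 19 genes of the G1 and S phase rose and 1 fell. The phosphatase gene CDC25A rose from 6.57 ± 0.15 to 7.35 ± 0.05 (0.78 ± 0.13, adjusted p = 0.00223), the cyclin gene CCNE1 by 0.57 ± 0.12 and the inhibitor gene CDKN1A by 0.67 ± 0.10. CDKN1A read 7.98, 7.73 and 7.99 in control and 8.56, 8.58 and 8.57 in treated cells, so an activator and an inhibitor of the same kinases rose in the same arrays. Cyclin D1 (CCND1) did not pass and differed by 0.03 ± 0.12 (adjusted p = 0.917), with overlapping groups. Without Petri control 2, Petri treated 2 or Petri treated 3, 4 of the 7 rises were left in each case. Among the 40 largest rises were CDC6, which loads the replicative helicase (6.72, 7.23 and 7.07 to 8.09, 8.53 and 8.38), the thymidine kinase gene TK1 (8.11, 8.29 and 8.46 to 9.38, 9.56 and 9.65) and the primase partner gene POLA2 (6.36, 6.48 and 6.42 to 7.43, 7.72 and 7.56). In all 3 the lowest array of each group was replicate 1.

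Repair of broken and crosslinked DNA held many of the large rises. Of 29 Fanconi and homologous recombination genes, 17 rose and 0 fell, with a median of 0.44, and the count lay between 13 and 17 without any 1 Petri array. BRCA1, which promotes strand resection, read 6.44, 6.70 and 6.30 in control and 7.66, 7.75 and 7.58 in treated cells, a 2.27-fold rise (1.19 ± 0.14, adjusted p = 0.000251). Control array 3 was the lowest and treated array 2 the highest. The helicase genes BLM and BRIP1 rose by 1.18 ± 0.16 and 1.09 ± 0.17, the nuclease genes EME1 and EXO1 by 1.16 ± 0.14 and 1.08 ± 0.18, and the recombinase relative RAD51C by 0.97 ± 0.13. FANCI and FANCB of the Fanconi complexes rose by 0.89 ± 0.12 and 0.79 ± 0.14. POLQ, the polymerase of end joining by short homology, went from 5.18 ± 0.11 to 6.28 ± 0.06 (1.10 ± 0.10, adjusted p = 2.44e-05), and DDIAS, a factor that limits death after damage, from 5.63 ± 0.05 to 6.78 ± 0.04. APOBEC3B, a cytidine deaminase of single-stranded DNA, rose by 1.13 ± 0.20 (adjusted p = 0.00308).

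Checkpoint genes and a few other repair genes also rose. Of 18 checkpoint genes, 10 rose and 0 fell, among them the claspin gene CLSPN (1.03 ± 0.17), which carries the signal to the checkpoint kinase, TOPBP1 (0.70 ± 0.09), TIMELESS (0.69 ± 0.12) and the phosphatase gene PPM1D (0.89 ± 0.12), which switches the checkpoint off. The count was 5 without Petri control 2, Petri treated 2 or Petri treated 3. Of 28 genes of nucleotide excision, base excision and mismatch repair, 6 rose (21.4%, beside 8.38% of all genes), with a median of 0.10. The glycosylase gene NEIL3 rose by 0.92 ± 0.10 and the damage sensor gene XPC by 0.73 ± 0.12. Without Petri control 2, Petri treated 2 or Petri treated 3, only 2 of these 6 remained in number, and 3 without Petri control 3.

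Several chromatin assembly genes rose. Of 21 genes of nucleosome assembly, DNA methylation and heterochromatin, 11 rose and 0 fell, with a median of 0.42, and 7 rose without Petri treated 2. The histone chaperone gene ASF1B read 7.80, 8.07 and 7.97 in control and 9.01, 9.20 and 8.95 in treated cells (1.11 ± 0.20, adjusted p = 0.00415). CHAF1A, a subunit of the assembly factor at the fork, rose by 0.67 ± 0.12, the maintenance methyltransferase gene DNMT1 by 0.60 ± 0.07 and the heterochromatin protein gene CBX5 by 0.66 ± 0.09. Of 45 canonical histone genes, 0 rose and 2 fell, and the median was 0.01, while 2 rose and 3 fell with the replicate block. H2BC14 read 9.11, 9.38 and 9.02 in control and 7.67, 8.0 and 7.78 in treated cells (-1.35 ± 0.29, adjusted p = 0.0101). H2BC3 fell by 1.03 ± 0.23, but it did not pass without Petri control 2, Petri treated 2 or Petri treated 3 (adjusted p up to 0.0569). Histone genes are near-identical copies, so which copy a probe set reads is uncertain.

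Chromosome segregation genes rose in the largest share of any list with over 10 tested members. Of 29 centromere and kinetochore genes, 18 rose and 1 fell, with a median of 0.55, and at least 12 rose without any 1 Petri array. CENPI, of the inner centromere network, read 6.09, 6.20 and 6.10 in control and 7.01, 7.10 and 7.04 in treated cells (0.92 ± 0.10, adjusted p = 9.86e-05). CENPW, a histone-fold protein of the same network, rose from 6.86 ± 0.15 to 7.87 ± 0.21, DSN1 of the outer kinetochore from 7.65 ± 0.17 to 8.62 ± 0.06, and CENPN and CENPU by 0.90 ± 0.13 and 0.80 ± 0.12. Of 22 condensin and cohesin genes, 9 rose and 1 fell, with a median of 0.33. The cohesin acetyltransferase gene ESCO2 rose by 1.04 ± 0.17, CDCA5 by 0.79 ± 0.15 and the condensin genes NCAPH, NCAPG2 and NCAPD3 by 0.84 ± 0.17, 0.75 ± 0.12 and 0.69 ± 0.09. STAG1, a cohesin subunit, differed by -0.38 ± 0.08 and was called in the fit of all arrays, but not without Petri control 2 (adjusted p = 0.056).

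Some motor, spindle and nuclear pore genes rose, with counts that leaned on single arrays. Of 38 kinesin genes, 10 rose (26.3%, beside 8.38% of all genes) and 0 fell, with a median of 0.18. The spindle motor genes KIF20B and KIFC1 rose by 0.78 ± 0.14 and 0.77 ± 0.14, the latter not where a gene's probe sets were averaged (adjusted p = 0.135). The count was 6 without Petri control 1, 4 without either Petri control 2 or Petri treated 2, and 5 when Petri treated 3 was left out. Of 16 tubulin genes 5 rose (31.2%), with TUBB4B at 0.48 ± 0.08 (adjusted p = 0.00179). The tubulin count was 1 without Petri control 2, 2 without Petri treated 2 or 3 and 3 without Petri treated 1. Of 29 nuclear pore and lamina genes 4 rose, from 0.29 for NUP98 to 0.39 for NUP188, and the median was 0.20. Their share of 13.8% was nearer to the 8.38% of all genes, and it rested on 4 calls. That count was 0 without Petri control 2 and 1 without Petri control 3, Petri treated 2 or Petri treated 3, and it was 10 with the replicate block.

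**Figure D3:**
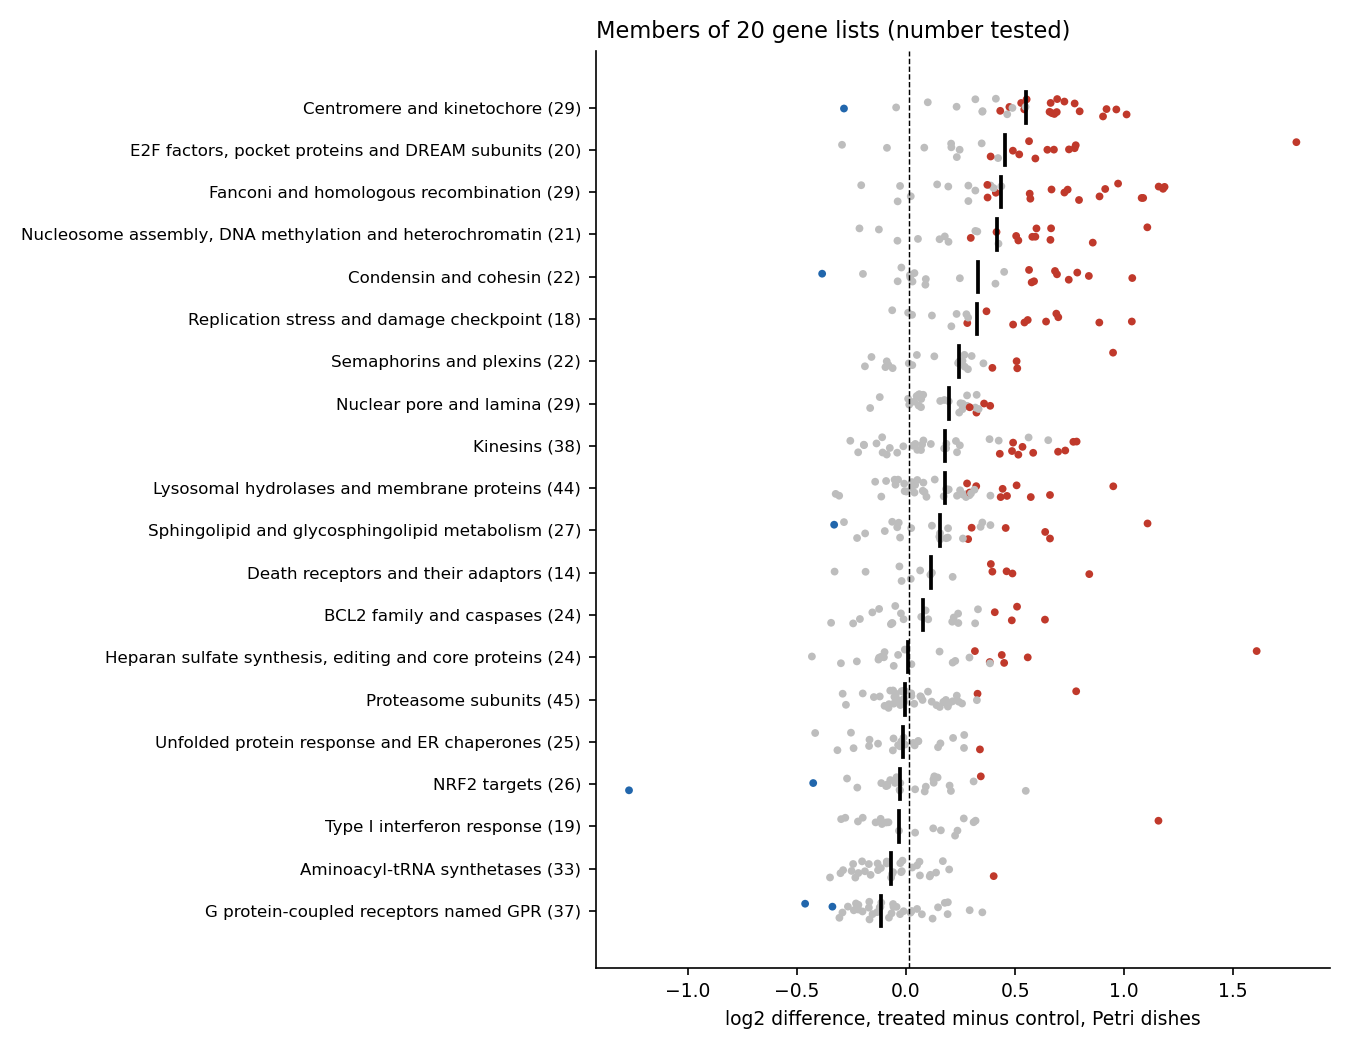
Each point is a gene of 1 of 20 lists, placed by its log2 difference in Petri dishes. Red points rose, blue points fell and grey points did not pass. The black bar is the list median and the dashed line the median over all genes, 0.01. List medians run from 0.55 for the centromere and kinetochore list to -0.11 for the G protein-coupled receptors.

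Some death receptor genes rose. Of 14 death receptors and adaptors, 5 rose (35.7%, beside 8.38% of all genes) and 0 fell, and without Petri control 2 the count was 3. FAS read 6.78, 7.0 and 6.98 in control and 7.64, 7.79 and 7.85 in treated cells, a 1.79-fold rise (0.84 ± 0.10, adjusted p = 0.000309). The receptor genes of the ligand TRAIL, TNFRSF10A and TNFRSF10D, the latter a decoy without a full death domain, rose by 0.46 ± 0.09 and 0.49 ± 0.09. Of 24 genes of the BCL2 family and caspases 4 rose (16.7%), with a median of 0.08. APAF1, the scaffold of the apoptosome, went from 7.26 ± 0.14 to 7.90 ± 0.06 (0.64 ± 0.10, adjusted p = 0.00117). The count was 1 without Petri control 2, 2 without Petri treated 2 or 3 and 7 with the replicate block. Of 13 secreted factors of the senescence programme 5 rose (38.5%), but the count was 0 without Petri control 2. It was 1 without Petri treated 2 or 3, 2 without Petri control 3 and 3 without Petri control 1. GDF15, a stress hormone, read 10.40, 10.91 and 11.15 in control and 10.88, 11.54 and 11.66 in treated cells. Its groups overlapped and it did not pass (0.54 ± 0.23, adjusted p = 0.147), whereas with the replicate block its adjusted p was 0.00309. MDM2, a p53 target named whatever its values, read 10.41 ± 0.06 in control and 10.65 ± 0.07 in treated cells. It did not pass (0.24 ± 0.08, adjusted p = 0.0654, and 0.0679 with the replicate block).

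Lysosomal and sphingolipid genes formed a smaller upward group. Of 44 lysosomal hydrolases and membrane proteins, 10 rose (22.7%, beside 8.38% of all genes) and 0 fell, with a median of 0.18. The cathepsin gene CTSV read 6.21, 6.18 and 6.43 in control and 7.19, 7.16 and 7.31 in treated cells, a 1.93-fold rise (0.95 ± 0.14, adjusted p = 0.00117). The ganglioside activator gene GM2A rose by 0.51 ± 0.09, the acid sphingomyelinase gene SMPD1 by 0.66 ± 0.10 and the asparaginyl protease gene LGMN by 0.43 ± 0.08. The lysosomal count was 4 without Petri control 1, Petri treated 2 or Petri treated 3, 5 without Petri control 2 and 17 with the replicate block. Of 27 sphingolipid genes, 6 rose (22.2%) and 1 fell. ACER2, the ceramidase of the Golgi, read 6.21, 5.91 and 6.03 in control and 7.36, 7.06 and 7.06 in treated cells, a 2.15-fold rise (1.11 ± 0.16, adjusted p = 0.000747). ACER3, its relative that acts on unsaturated ceramides, rose by 0.64 ± 0.12. In number, 3 of the 6 sphingolipid rises were left without Petri control 2 or Petri treated 2, and 10 were called with the replicate block. Of 34 core autophagy genes 4 rose, a share of 11.8% near the 8.38% of all genes, and these were DRAM1, a lysosomal p53 target (0.94 ± 0.11, adjusted p = 0.000196), ATG16L2 (0.49 ± 0.10), WIPI1 (0.40 ± 0.08) and ATG4A (0.38 ± 0.08).

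Lipid second messenger and heparan sulfate enzymes each held a few large rises. Of 30 diacylglycerol and phosphoinositide enzymes 5 rose (16.7%, beside 8.38% of all genes), with a median of 0.08. DGKA, a diacylglycerol kinase, read 7.49, 7.41 and 7.13 in control and 8.81, 8.97 and 8.99 in treated cells. DGKZ rose by 0.62 ± 0.09 on its brightest probe set, while another probe set gave 0.12. The inositol phosphatase genes INPP4A and INPP5D rose by 0.51 ± 0.07 and 0.53 ± 0.11. Of 24 heparan sulfate genes 6 rose (25%), and the median was 0.01. SULF2, which removes sulfate from the chains at the cell surface, read 5.25, 5.10 and 4.69 in control and 6.58, 6.72 and 6.57 in treated cells, and the core protein genes GPC1 and SDC1 rose by 0.56 ± 0.10 and 0.44 ± 0.08. Without Petri control 2 or Petri treated 2 the count was 3, and 2 heparan sulfate genes fell with the replicate block.

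Single members of several surface signalling families rose. NOTCH1, the receptor, read 6.53, 6.16 and 6.42 in control and 7.31, 7.48 and 7.45 in treated cells, a 2.06-fold rise (1.04 ± 0.12, adjusted p = 0.000196). Of 22 Notch pathway genes 2 rose (9.09%), a share near the 8.38% of all genes, and the median was -0.04. NECTIN4, an adhesion protein of adherens junctions, rose from 5.76 ± 0.15 to 6.82 ± 0.10 (1.05 ± 0.10, adjusted p = 5.66e-05). It was 1 of 3 rises among 30 junction genes (10%), also near the share of all genes. TIE1, a receptor of endothelium, rose by 0.99 ± 0.16 (adjusted p = 0.00184), while 7 of 11 endothelial markers lay under the 40th percentile in all 6 arrays. The summed log2 level of the 11 endothelial markers was 49.66 to 50.31 in control and 49.59 to 50.85 in treated arrays. CD3D of T cells rose by 0.52 ± 0.10, while 5 of 12 leukocyte markers, PTPRC and CD3E among them, lay under that percentile and the summed level was 66.90 to 68.10 in control and 66.83 to 67.29 in treated arrays. Of 8 cholangiocyte markers tested, 0 rose and 1 fell. The summed level of the 10 on the array was 72.61 to 74.37 in control and 72.13 to 73.07 in treated arrays. All arrays are of the same cell line, and in its bulk RNA fewer cells with a transcript and less transcript per cell cannot be told apart.

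Some genes of axon guidance and 1 of ephrin signalling were also among the rises. The secreted semaphorin gene SEMA3F read 7.12, 7.01 and 6.89 in control and 8.03, 7.84 and 7.99 in treated cells (0.95 ± 0.09, adjusted p = 3.18e-05). The semaphorin receptor gene PLXNB2 rose by 0.51 ± 0.07, with an SD of 0.04 and 0.02. Of 22 semaphorins and plexins 4 rose (18.2%, beside 8.38% of all genes), with a median of 0.24. The count was 2 without Petri treated 3 and 7 with the replicate block. Among 12 ephrins and Eph receptors EPHB4 alone rose (0.50 ± 0.10, adjusted p = 0.00539), a share of 8.33% beside 8.38% of all genes. The median of these 12 genes was -0.07, and 2 fell with the block.

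Solute carriers moved in both directions. Of 274 SLC genes, 16 rose and 13 fell, and the median was 0.01. The share that rose, 5.84%, was below the 8.38% of all genes, and the share that fell was above their 1.98%. Without Petri control 3 or Petri treated 2 the rises were 10 and 9, and with the replicate block 29 rose and 21 fell. Rises included the nucleoside carrier gene SLC29A1 (0.66 ± 0.08), the vitamin C carrier gene SLC23A2 (0.63 ± 0.11), the iron exporter gene SLC40A1 (0.61 ± 0.10), the heme carrier gene SLC48A1 (0.61 ± 0.11) and the amino acid carrier gene SLC36A4 (0.70 ± 0.11). All but SLC36A4 lie outside the naming rule and were picked after their values were seen. The phosphate and urate carrier genes SLC17A1 and SLC17A2, which are chromosomal neighbours, fell. SLC17A2 read 6.26, 6.15 and 5.94 in control and 5.36, 5.42 and 5.20 in treated cells (-0.79 ± 0.11, adjusted p = 0.000703), and SLC17A1 read 5.40, 5.48 and 5.45 in control and 4.45, 5.10 and 4.67 in treated cells (-0.70 ± 0.14, adjusted p = 0.00782). The glutamine carrier gene SLC38A5 fell by 0.58 ± 0.12, against a rise of its relative SLC38A10 by 0.43 ± 0.08. The cystine importer gene SLC7A11 read 6.97, 8.03 and 6.98 in control and 6.30, 5.88 and 5.98 in treated cells, so control array 2 was the highest and treated arrays lay below all controls.

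Of the osmolyte genes, 2 rose. SLC5A3, which takes up myo-inositol, read 8.68, 8.21 and 8.30 in control and 10.31, 9.85 and 9.87 in treated cells, a 3.06-fold rise with the adjusted p at 0.0218. Its call was lost in each fit that left out 1 Petri array other than Petri control 1, with an adjusted p of up to 0.08 without Petri control 2, and held with the replicate block (adjusted p = 0.00025). HSPA4L, a chaperone relative that responds to salt stress, read 7.86, 7.66 and 7.81 in control and 8.70, 8.74 and 8.74 in treated cells (0.95 ± 0.08, adjusted p = 2.16e-05). These 2 were the rises among 13 genes of osmolyte uptake and tonicity response (15.4%, beside 8.38% of all genes). With the replicate block 4 of the 13 rose.

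Zinc finger genes rose at about the rate of all genes. Of 373 genes named ZNF, 32 rose (8.58%) beside 8.38% of all genes, and 1 fell. The largest rise was that of ZNF724, at 5.56, 5.26 and 4.97 in control and 6.64, 6.15 and 6.35 in treated cells (1.12 ± 0.19, adjusted p = 0.00271), with ZNF680 at 0.78 ± 0.11, which began below the 40th percentile, and ZNF431 at 0.65 ± 0.10. Of the 32, 12 lay within 5 tested genes of another risen ZNF gene along the chromosome. No such count was made for all tested ZNF genes, so the 12 do not show that neighbours rose together. ZNF genes come in clusters of similar copies, so their probe sets may read more than 1. ZNF rises numbered 20 without Petri control 2, 15 without Petri control 3 and 18 without Petri treated 2 or 3. With the replicate block 49 rose and 7 fell.

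The largest rise of all was that of a pancreatic acinar gene, CEL. Of 12 tested acinar genes 2 rose (16.7%, beside 8.38% of all genes) and 1 fell. The 2 rises were those of CEL and its pseudogene. CEL encodes the bile salt dependent lipase of pancreatic juice. It read 5.87, 5.76 and 5.95 in control and 8.18, 8.27 and 8.38 in treated cells, a 5.33-fold rise. Its pseudogene CELP rose by 0.44 ± 0.09, and reads of either on the other's probe set cannot be told apart here. The acinar markers PRSS1 and CTRC lay under the 40th percentile in all 6 arrays, and no gene of the 6 acinar markers on the array passed. Their summed log2 level was 30.73 to 30.84 in control and 30.64 to 30.89 in treated arrays.

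The falls were fewer and smaller, and included genes of liver metabolism and secretion. The summed log2 level of the 19 hepatocyte markers was 201.21 to 205.43 in control and 198.86 to 201.44 in treated arrays, with 1 marker, APOH, called as fallen (-0.49 ± 0.13, adjusted p = 0.0266, and up to 0.111 without Petri control 1, Petri control 2, Petri treated 2 or Petri treated 3, where the call was lost), and the part of this in the falls was not tested. TSPAN8, a tetraspanin of gut and liver tumour cells, read 6.84, 6.42 and 6.31 in control and 5.41, 5.24 and 5.25 in treated cells, a 2.34-fold fall (-1.22 ± 0.21, adjusted p = 0.0024). INHBE, a liver subunit of activin, read 7.57, 8.62 and 7.96 in control and 6.92, 7.19 and 6.92 in treated cells (-1.04 ± 0.19, adjusted p = 0.00429). TNFSF4, the OX40 ligand of immune cells, went from 7.03 ± 0.32 to 6.19 ± 0.22, and FHIT, a diadenosine polyphosphate hydrolase, from 7.37 ± 0.25 to 6.57 ± 0.18. Control array 2 was the highest for INHBE and control array 1 for TSPAN8 and TNFSF4, and the naming rule required of these 4 genes that the groups do not overlap.

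Some enzymes of fatty acid and NADPH metabolism fell. IDH1, the cytosolic isocitrate dehydrogenase that makes NADPH, read 10.06, 9.87 and 9.71 in control and 9.09, 9.37 and 9.06 in treated cells (-0.71 ± 0.12, adjusted p = 0.00239). The acyl-CoA thioesterase genes ACOT1 and ACOT2, near-identical neighbours whose probe sets may read each other, fell by 0.66 ± 0.10 and 0.56 ± 0.11. Of 23 genes of triglyceride storage and lipid droplets, 1 rose and 3 fell, with FITM1, which aids droplet formation, at 8.09 ± 0.07 in control and 7.53 ± 0.03 in treated cells (-0.56 ± 0.12, adjusted p = 0.00906). ANGPTL8, a secreted inhibitor of lipoprotein lipase that was picked after its values were seen, fell by 0.55 ± 0.13 (adjusted p = 0.014).

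HNF4G, a nuclear receptor of liver and gut picked after its values were seen, read 7.15 ± 0.06 in control and 6.70 ± 0.06 in treated cells (-0.45 ± 0.07, adjusted p = 0.00219). AGTR1, the angiotensin receptor, fell by 0.70 ± 0.09 (adjusted p = 0.000372), the myosin kinase gene MYLK by 0.65 ± 0.10, RBM7, of the nuclear exosome adaptor, by 0.65 ± 0.12, the pseudouridine synthase gene PUS10 by 0.64 ± 0.12 and SEC11C, a signal peptidase subunit, by 0.62 ± 0.10. MYC, a driver of growth, read 10.48, 10.63 and 10.52 in control and 10.15, 10.05 and 9.99 in treated cells. Its difference of -0.48 ± 0.14 had an adjusted p of 0.0411, and no fit that left out a Petri array kept the call (adjusted p up to 0.135, without Petri treated 3).

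Classes often followed in acetaminophen work differed in their share of calls. Among all genes 8.38% rose and 1.98% fell. Of 26 NRF2 targets, which answer electrophiles, 1 rose (3.85%) and 2 fell, and the median was -0.03 (2 and 2 with the replicate block). NQO1, a quinone reductase of that class, differed by -0.09 ± 0.12 with overlapping groups (adjusted p = 0.685). Of 25 genes of the unfolded protein response 1 rose (4%), with a median of -0.01, and 2 rose and 2 fell with the block. DDIT3 read 7.65, 8.41 and 8.30 in control and 7.20, 7.88 and 8.03 in treated cells (-0.42 ± 0.21, adjusted p = 0.227, and 0.00752 with the replicate block). ATF3 differed by 0.32 ± 0.24 (adjusted p = 0.429). Of 27 cytochrome P450 genes 5 rose (18.5%) and 3 fell, larger shares than among all genes. A called P450 gene differed in sign between its 2 tested probe sets (-0.332 and 0.635), so its direction is uncertain. CYP1A1, an inducible P450 of aromatic compounds, read 5.43, 5.11 and 5.54 in control and 5.78, 6.15 and 6.25 in treated cells (0.70 ± 0.14), and CYP4F2 rose by 0.67 ± 0.14. The P450 rises were 3 without Petri controls 2 or 3 or Petri treated 3. None of 14 peroxisome biogenesis genes passed, and 1 rose with the replicate block, although DAO and IDH1 belong to enzymes found there.

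Housekeeping complexes gave few calls. Rises and falls were 2 and 0 among 45 proteasome genes, 1 of which, PSMC3IP, is a recombination factor with a like name, 1 and 0 among 33 aminoacyl-tRNA synthetases, 1 and 0 among 33 complex I subunits and 1 and 2 among 72 mitochondrial ribosomal proteins. Among 132 small nucleolar RNAs 0 rose and 3 fell, with SNORD79 at 6.05 ± 0.26 in control and 5.44 ± 0.07 in treated cells (-0.61 ± 0.12). With the replicate block, 2 and 2 of the proteasome genes, 1 and 2 of the synthetases, 2 and 0 of complex I, 3 and 2 of the mitochondrial ribosomal proteins, 0 and 6 of the small nucleolar RNAs and 3 and 2 of the Rab genes rose and fell. Among 51 Rab genes 0 rose and 1 fell, and among 18 olfactory receptor genes and 10 protocadherins none passed. The list medians of olfactory receptors and protocadherins, -0.15 and -0.16, lay beside a median of -0.08 in the dimmest of the 5 intensity classes. Of the 10 genes of highest intensity none passed: AHSG came nearest, at 12.91 ± 0.03 in control and 12.74 ± 0.02 in treated cells (-0.17 ± 0.07, adjusted p = 0.154), and EEF1A1, a translation factor, differed by -0.12 ± 0.07.

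The same cell line in the microsystem moved most of these genes in the same direction. Of the 1106 genes that rose in Petri dishes, 483 also rose in the microsystem, where 843 rose and 353 fell, and 1060 had a positive difference there. Of the 261 that fell, 68 fell there too, 231 had a negative difference and 1, HMOX1, rose. The Petri fall of HMOX1, the heme oxygenase gene, was lost in each of the 6 fits that left out a Petri array (adjusted p up to 0.111, without Petri treated 2). The cultures have no array in common but the fit shares its estimate of spread between them. The difference between the effects passed for 4 genes (0.0303% of 13199), and 970 had an unadjusted p under 0.05. It passed for 1 gene without Petri controls 2 or 3 or Petri treated 2, for 2 without Petri treated 1 or Petri treated 3 and for 24 with the replicate block. CEL rose by 2.41 in Petri dishes and by 0.77 ± 0.13 in the microsystem, a difference of -1.65 ± 0.18 (adjusted p = 0.00762). LAPTM5 rose by 1.26 and differed by 0.01 ± 0.13 in the microsystem (difference -1.25 ± 0.18, adjusted p = 0.0369), HSPA4L by 0.95 and 0.16 ± 0.08 (-0.79 ± 0.11, adjusted p = 0.0369). AGTR1 fell by 0.70 in Petri dishes and read 0.15 ± 0.09 in the microsystem (0.84 ± 0.12, adjusted p = 0.0369). For other genes that passed in Petri dishes alone, such as NOTCH1 (0.11 ± 0.12 in the microsystem), TXNIP (0.12 ± 0.27) and DRAM1 (0.07 ± 0.11), the difference between cultures did not pass, which does not show that they responded alike.

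**Figure D4:**
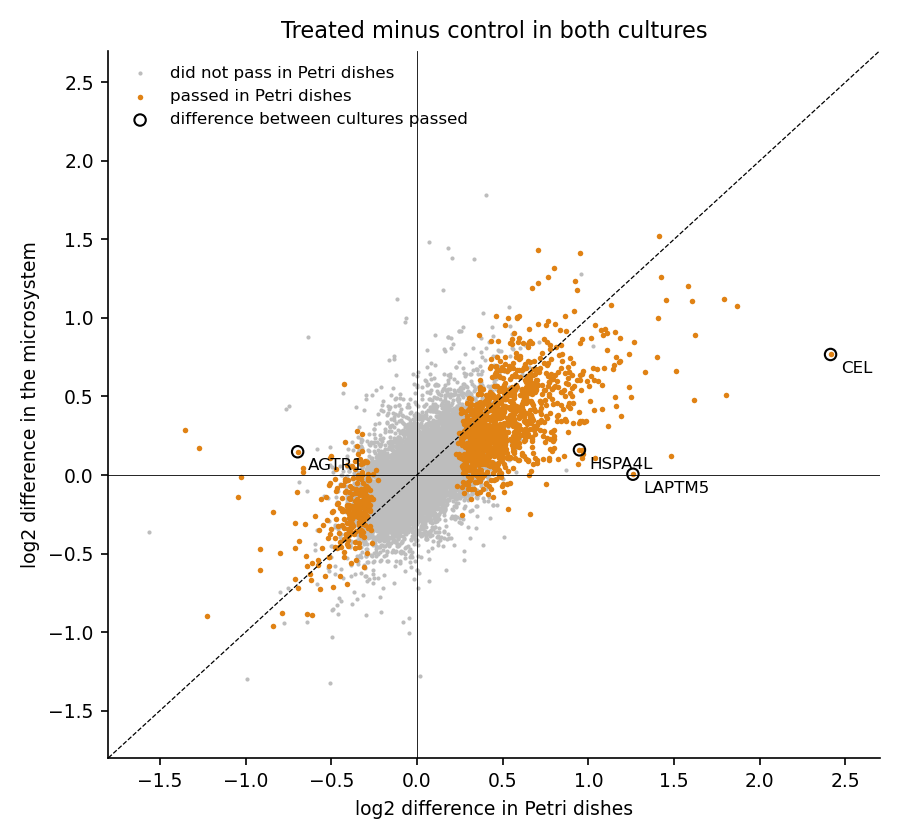
Each point is a gene, with its log2 difference between treated and control cells in Petri dishes on the horizontal axis and in the microsystem on the vertical axis. Orange points passed in Petri dishes, circled genes differed between cultures, and the dashed line marks equal differences. CEL lies far below that line, at 2.41 and 0.77.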

How the data were processed

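The log2 intensities were made by the authors with RMA and used as deposited. The submitters' processing notes name Affymetrix Expression Console as the tool. RMA summarises probes on a shared scale, so low values are compressed near background. No genome build is named in the labels used here. Of 32321 probe sets, 19158 had 1 gene symbol in GEO's platform annotation, with symbols updated through gene identifiers to RefSeq, and the probe set of highest mean over the 12 arrays stood for each of 18404 genes. Genes above an array's 40th percentile on at least 3 arrays were tested (13199). Of 36 called genes with several tested probe sets, 27 had the same sign on all of them. limma 3.58.1 in R 4.3.3 fitted all 12 arrays with 1 coefficient per group, eBayes and Benjamini-Hochberg adjustment, and was tested on simulated data. Errors of differences are standard errors, and the number of arrays limits precision.

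Same-numbered treated and control arrays deviated together (r = 0.477, 0.189 and 0.307), though the labels state no pairing. Arrays of different number were not compared in this way. The main fit used no pairing, so errors, adjusted p-values and calls are unpaired unless the replicate block is named. That block, an alternative, was built from the replicate numbers in the titles. Genes to be named were the 40 largest rises and 25 largest falls without overlap and up to 5 called members of each list. The 10 brightest genes, genes that differed between cultures, called cell type markers and a few fixed genes were added. The text prints some of all these genes. Members and lists were chosen with earlier results of these data known. Lists are described by counts and medians, with no set test.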

Additional observations from a re-analysis of the deposited data

Results flagged for a closer look

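In 4 genes the treatment effect differed between cultures by a test of the difference itself in limma. The effect in the microsystem minus that in Petri dishes was -1.65 for CEL, -1.25 for LAPTM5, -0.79 for HSPA4L and 0.84 for AGTR1 on the log2 scale.

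Probe sets outside the main measurement also passed in Petri dishes. Of 5539 bright enough probe sets with no gene symbol here, 103 passed, 55 higher and 48 lower in treated cells (1.86%). Of 984 with several symbols, 27 passed, 21 higher and 6 lower (2.74%). In the same fit over all probe sets, 6.69% of 13703 with 1 symbol passed, 800 higher and 117 lower.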

How the results depend on the processing

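Against 1106 rises and 261 falls, falls numbered 532 with the replicate block and 153 with array medians set equal. Rises and falls were 1953 and 810 in the 6 Petri arrays alone with the block, 2424 and 1178 with array weights and 363 and 29 with a 1.5-fold minimum. Without 1 Petri array at a time, rises ranged from 604 to 987 and falls from 77 to 187. Rises made up 80.9% of calls, 90.7% with array medians set equal (which moved the median of all genes to 0.05), 76.1% with quantile normalization and 67.3% with array weights. Of 141 called genes named, 133 kept the call without any 1 Petri array. With the replicate block no named call other than those of GDF15 and DDIT3 changed. Genes that differed between cultures were 4, and 24 with the block, 11 without both microsystem arrays numbered 3, 7 with quantile normalization, 10 with an intensity trend and 54 with array weights, and from 1 to 5 without 1 Petri array. Near 0, CCND1 differed by -0.011 with quantile normalization and by 0.00 to 0.055 without 1 Petri array, and NQO1 by -0.171 to 0.016. The causes of these shifts were not tested. Intensities near background limit what the dimmest genes can show, and 3 arrays a group limit all.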
